A study of Homo sapiens with 42 samples.

Results

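The translation initiation factor genes were taken as the protein-coding genes of GENCODE 29 whose symbol starts with EIF and a digit from 1 to 6. The rule found 56 genes among the 42145 genes that have an entry in the deposited tables. A gene entered the account of levels in a table where its mean was at least 10 reads per library. Of the 56 genes, 40 reached that minimum in at least 1 of the 3 tables and 38 reached it in all 3, with 39 in each table. All 39 genes at the minimum passed the expression filter of the test in each table. The other 16 were under the minimum in every table and are not described gene by gene, apart from EIF3F and EIF3CL: they include the eIF3 subunits EIF3E, EIF3G, EIF3K and EIF3L, the eIF2 kinases EIF2AK3 and EIF2AK4, and EIF2A, EIF2B3, EIF2D, EIF4E3 and EIF5A2.

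The 42 libraries came from MDA-MB-231, an established human breast cancer line, and fall into 14 groups of 3. In 1 table, cytoplasmic and nuclear RNA was compared in the poorly metastatic line, called Par here, and in LM2, a derivative that metastasizes strongly to the lungs. In another, the same fractions were taken from poorly metastatic MDA-MB-231 cells with a knockdown of HNRNPC, an RNA-binding protein of the nucleus (gHNRNPC), or with the control (gCTRL). The remaining table holds total RNA of LM2 cells that received 3 µM of the compound T4 in DMSO, or DMSO alone, for 6 h, and were harvested at 6, 24 or 72 h, with the medium changed for the later harvests. Nothing in the labels says whether the 3 libraries of a group came from separate cultures, so p-values measure the spread between these libraries only, which may be technical.

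Eukaryotic initiation factors bring the initiator tRNA, the small ribosomal subunit and the mRNA together. The eIF2 complex carries the initiator tRNA, eIF2B recharges eIF2 with GTP, and the eIF2 kinases block that recharging under stress. The many-subunit eIF3 complex holds the small subunit, while eIF4F, made of the cap-binding protein eIF4E, the scaffold eIF4G and the helicase eIF4A, recruits capped mRNA, and the 4E-BP proteins compete with eIF4G for eIF4E. eIF1, eIF1A and eIF5 set the choice of the start codon, and eIF5B joins the large subunit.

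The libraries were read from the 3′ end of polyadenylated RNA, so each read is taken here to mark where a transcript ends. Whether some reads came from within a transcript instead was not tested. An entry of the tables is either the end of an annotated transcript or a position on a chromosome, called here a position-named site. The place of the position-named sites relative to the annotated gene was not established, since 11.8% of them lie inside the GRCh38 span of the gene they are listed under, and their coordinates are not given. The tables list the ends of a gene from the downstream side in 98.7% of 23690 neighbouring pairs of transcript ends.

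The ends on which the results turn are given as the last 30 bases of the RNA, from GENCODE 29 on GRCh38, with the polyadenylation hexamer AATAAA or ATTAAA in capitals where the window holds one. They are shown because EIF4A2 and EIF4G1 were read at 2 ends each, and because the reads of EIF3C could also belong to its copy EIF3CL.
EIF4A2 transcript end: tgaatgttaAATAAAttgtatattcacttt
EIF4G1 downstream end: aattATTAAAcatgaattcaattaagctca
EIF4G1 upstream end: cccgaatggatcagtatttcaaccagatgg
EIF3C transcript end: acctcagtcactaaaggtctgtttaaagtt
EIF3CL transcript end: aggtgaattgaacacgttcctgacctcaaa
EIF4A2, a helicase of eIF4F, lies on the plus strand of chromosome 3 at 186783205 to 186789900, and the transcript end shown, of a retained-intron transcript, ends at 186789894, 6 bases from the end of the gene. EIF4G1, the scaffold of eIF4F, lies on the plus strand of chromosome 3 at 184314495 to 184335358. Its downstream end is the end of the gene, and its upstream end, of a transcript annotated for nonsense-mediated decay, is at 184325299, 10059 bases upstream. EIF3C, a core subunit of eIF3, lies on the plus strand of chromosome 16 at 28688558 to 28735730, and EIF3CL on the minus strand at 28379579 to 28403879. The 2870 bases of the EIF3C transcript were 100% identical to bases of the 3085-base EIF3CL transcript. Over 22222 transcripts, the last 30 bases held AATAAA in 42.03% and ATTAAA in 12.33%, searched as letters on the RNA strand only, and held either in 52.84%.

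Library totals ran from 798052 to 2304698 reads. The third 6 h T4 library had the lowest scaling factor (0.4999), and the nuclear libraries numbered 2 of LM2 and Par stood apart from the other nuclear libraries in EIF2AK2 and in their factors (0.721 and 0.731). Levels are in CPM, the counts scaled to library size, and over all libraries were 43.0 to 1590 for VIM and 27.0 to 462 for CD44, genes typical of MDA-MB-231, against at most 0.884 for the luminal marker ESR1 and 0 for PGR. PTPRC, a leukocyte marker, reached at most 0.857 CPM and the endothelial marker PECAM1 at most 1.20 CPM, while KRT8 ran from 13.7 to 74.6 CPM, CD68 from 1.92 to 125 CPM and the fibroblast gene COL1A1 from 0 to 61.3 CPM. The nuclear RNA MALAT1 averaged 52.0 CPM in the gCTRL nucleus against 5.37 in its cytoplasm, and 19.3 against 3.83 CPM in Par, and 13.6 against 4.70 CPM in LM2. HNRNPC itself averaged 99.8 ± 13.1 CPM (SD, n = 3) in the gHNRNPC cytoplasm against 512 ± 32.2 in the gCTRL cytoplasm, and 98.4 ± 16.1 against 534 ± 96.2 in the nuclei. The exact test of a single value cannot go below p = 0.1 with 3 against 3, so differences below are tested with edgeR's quasi-likelihood fit across all genes, and "rose" or "fell" marks an adjusted p under 0.05.

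Between the fractions, more initiation factor genes were lower in the nucleus than higher, in each of the 4 cell groups. In Par, 4 of 39 were higher in the nucleus and 17 lower, where 25.8% and 21.9% of all tested genes were (47.7% in either direction). In LM2 the counts were 8 and 14, against 31.5% and 23.5% of all genes (54.9% in either), and in gCTRL 6 and 21, against 33.9% and 27.6% (61.5% in either). In gHNRNPC cells 5 were higher and 19 lower, against 31.2% and 23.2% (54.4% in either). The median log2 difference, nucleus against cytoplasm, was -0.46 for the initiation factors and 0.07 for all genes in Par, -0.26 and 0.22 in LM2, -0.62 and 0.06 in gCTRL, and -0.61 and 0.03 in gHNRNPC. These values compare shares of each fraction's own reads, so they do not give the amounts of RNA in the nucleus and the cytoplasm.

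Of the 39 genes, 10 were lower in the nucleus in 4 of 4 cell groups and 3 were higher in 4 of 4, while 0 passed the test in opposite directions in different groups. Of all genes tested in both tables, 14.8% were lower in 4 of 4 groups, 19.5% were higher in 4 of 4 and 0.746% passed in opposite directions. The 10 were EIF1AX, EIF2AK1, EIF2B1, EIF3H, EIF3I, EIF4B, EIF4EBP1, EIF4EBP2, EIF5A and EIF6, and the 3 were EIF2B5, EIF3A and EIF4G1. Another 6 passed in none of the 4, as did 20.5% of all genes: EIF1B, EIF2B2, EIF2S2, EIF4A2, EIF4ENIF1 and EIF4G3.

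**Figure D1:**
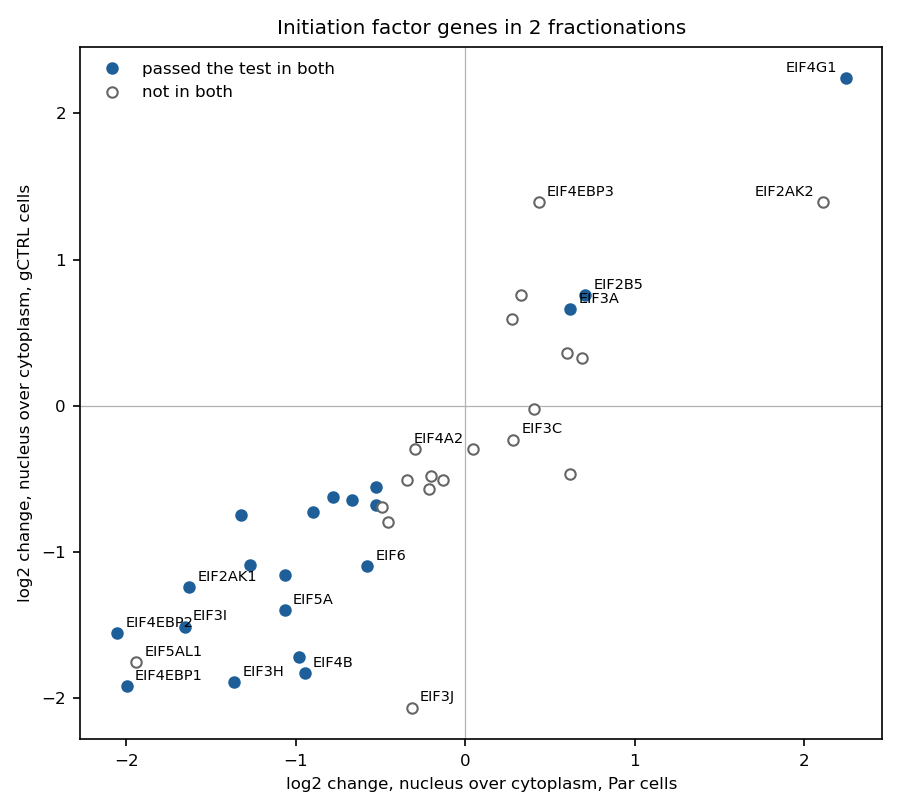
The log2 difference of nucleus against cytoplasm for each initiation factor gene in Par cells (horizontal axis) and in gCTRL cells (vertical axis), with filled points for genes that passed the test in both. EIF4G1 lies at 2.25 and 2.24, and EIF4EBP1 at -1.999 and -1.92.

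EIF4G1 had the highest nuclear levels relative to the cytoplasm among the 3 genes that were higher throughout. In Par, its cytoplasmic libraries held 378, 469 and 300 CPM and its nuclear libraries 2322, 1261 and 1858 CPM. In gCTRL, they held 275, 233 and 248 CPM in the cytoplasm and 958, 1156 and 1455 CPM in the nucleus. Every nuclear library lay above every cytoplasmic library in both. The log2 differences were 2.25 ± 0.33 (SE) in Par, 2.33 ± 0.33 in LM2, 2.24 ± 0.22 in gCTRL and 1.53 ± 0.22 in gHNRNPC, with adjusted p from 6.4e-09 to 0.00031. EIF3A, the large scaffold subunit of eIF3, was 70.7, 74.0 and 68.2 CPM in the gCTRL cytoplasm and 135, 118 and 83.8 CPM in the nucleus, and its log2 difference ran from 0.62 in Par to 0.96 in LM2. EIF2B5, the catalytic subunit of eIF2B, was 38.1, 41.6 and 37.4 CPM in the gCTRL cytoplasm and 79.8, 58.8 and 59.4 CPM in the nucleus, and its log2 difference ran from 0.71 in Par to 1.01 in LM2. For both genes the gCTRL fractions did not overlap. EIF3A lost its gCTRL call without the nuclear library 1 (adjusted p = 0.091), and its Par call under 5 of 12 alternatives (adjusted p up to 0.088). The Par value of EIF2B5 lost its call without a filter on low counts and without the cytoplasmic library 2 or 3 or the nuclear library 3 of Par (adjusted p up to 0.10).

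The inhibitors of cap binding were split. EIF4EBP1, the 4E-BP controlled by mTOR, was 76.7, 99.5 and 69.2 CPM in the gCTRL cytoplasm and 22.2, 22.6 and 19.8 CPM in the nucleus. In LM2 it was 134, 153 and 124 CPM in the cytoplasm and 20.02, 26.4 and 35.6 CPM in the nucleus. Its fractions did not overlap in either, and its log2 difference lay between -2.31 and -1.92 over the 4 groups. EIF4EBP2 was 131, 98.9 and 139 CPM in the gCTRL cytoplasm and 37.4, 36.2 and 52.1 CPM in the nucleus, with log2 differences from -2.06 in Par to -0.98 in gHNRNPC. EIF4EBP3, the third 4E-BP, went the other way in the knockdown table: it was 13.1, 17.8 and 17.5 CPM in the gCTRL cytoplasm and 35.5, 42.0 and 50.1 CPM in the nucleus. It rose in the nucleus by 1.39 ± 0.25 in gCTRL and 1.26 ± 0.27 in gHNRNPC on the log2 scale, and its values of 0.71 in LM2 and 0.43 in Par had adjusted p of 0.088 and 0.31. All EIF4EBP3 reads in the knockdown table were fractional estimates that the quantifier shared between entries, and none were in the other tables, so the tables may not count the same reads.

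Among the eIF3 subunits, EIF3H and EIF3I were lower in the nucleus throughout. EIF3I was 208, 205 and 210 CPM in the gCTRL cytoplasm and 67.8, 86.0 and 64.7 CPM in the nucleus, and 219, 233 and 237 against 73.2, 73.8 and 71.2 CPM in Par. EIF3H was 158, 152 and 140 CPM in the gCTRL cytoplasm and 39.9, 58.2 and 23.1 CPM in the nucleus. The fractions given here did not overlap for either gene, and the log2 differences ran from -1.66 to -1.07 for EIF3I and from -1.89 to -1.36 for EIF3H. EIF3J, a loosely bound subunit, was 25.0, 15.1 and 17.5 CPM in the gCTRL cytoplasm and 1.90, 5.17 and 6.60 CPM in the nucleus. EIF3J fell in the nucleus of gCTRL (-2.06 ± 0.42) and gHNRNPC cells (-1.59 ± 0.38), while its values were -0.32 in Par (adjusted p = 0.46) and 0.09 in LM2 (adjusted p = 0.84). These groups belong to separately scaled tables, and the difference between them was not tested.

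Of the genes grouped here with eIF4F, EIF4B, a cofactor of the helicase, was 346, 362 and 343 CPM in the gCTRL cytoplasm. It was 83.0, 112 and 100 CPM in the nucleus, with log2 differences from -1.83 in gCTRL to -0.95 in Par. EIF4E, the cap-binding protein, was 22.8, 15.7 and 16.6 CPM in the gCTRL cytoplasm and 8.24, 10.99 and 5.28 CPM in the nucleus, and fell in Par (-1.07), gCTRL (-1.16) and gHNRNPC (-1.05). EIF4E2, a second cap-binding protein, was 90.5, 80.1 and 66.0 CPM in the Par cytoplasm and 33.7, 26.5 and 33.9 CPM in the nucleus, and fell in Par (-1.32), LM2 (-0.88) and gCTRL (-0.75). The fractions printed here did not overlap, while those of EIF4E in gHNRNPC did, at 22.2, 17.9 and 12.002 CPM in the cytoplasm and 6.81, 14.3 and 3.78 CPM in the nucleus. The gCTRL call of EIF4E ended without the cytoplasmic library 1 or the nuclear library 3, and the gHNRNPC call without the cytoplasmic library 1 or the nuclear library 1 or 3 (adjusted p up to 0.17). EIF4A3, a helicase of the exon junction complex rather than of eIF4F, was 96.1, 91.6 and 93.8 CPM in the LM2 cytoplasm and 396, 148 and 241 CPM in the nucleus. It rose in the nucleus of LM2 by 1.48 ± 0.37 and of gCTRL by 0.76 ± 0.26 on the log2 scale, the latter lost without the cytoplasmic library 2 or the nuclear library 3 of gCTRL (adjusted p up to 0.11).

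EIF1AX, which scans for the start codon with eIF1, was 97.4, 115 and 93.8 CPM in the gCTRL cytoplasm and 31.7, 40.7 and 20.5 CPM in the nucleus. EIF2B1, a regulatory subunit of eIF2B, was 43.0, 27.6 and 42.2 CPM in the gCTRL cytoplasm and 16.5, 14.9 and 21.8 CPM in the nucleus. EIF6, which keeps the large ribosomal subunit from joining early, was 1124, 1511 and 1189 CPM in the gCTRL cytoplasm and 752, 556 and 482 CPM in the nucleus. None of these gCTRL fractions overlapped, and the log2 differences over the 4 groups ran from -1.72 to -0.98 for EIF1AX, from -1.27 to -0.96 for EIF2B1 and from -1.10 to -0.58 for EIF6. EIF2B1 lost its LM2 call without the cytoplasmic library 2 or the nuclear library 2 or 3 (adjusted p up to 0.069), and EIF6 its Par call with only the 2 groups in the fit (adjusted p = 0.052). EIF1 was 159, 244 and 173 CPM in the gHNRNPC cytoplasm and 88.6, 100 and 90.0 CPM in the nucleus, and its only call between fractions was there, at -1.05 ± 0.23.

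Apart from the genes above and those of the next paragraph, calls between fractions were smaller than 1 on the log2 scale. EIF4A1, the main helicase of eIF4F, fell in the nucleus of Par (-0.78), gCTRL (-0.62) and gHNRNPC (-0.74), and EIF4G2, a relative of EIF4G1 that does not bind eIF4E, in the same 3 groups (-0.90, -0.73 and -0.61). EIF2S3 fell in Par (-0.67), LM2 (-0.59) and gCTRL (-0.64), with 0.28 in gHNRNPC (adjusted p = 0.31). EIF5B rose in the nucleus of Par (0.69) and LM2 (0.79), and EIF1AD (0.83) and EIF3C (0.39) in LM2. The call of EIF3C there held under 3 of 13 alternatives (adjusted p up to 0.33). That of EIF1AD was lost with DESeq2, without a filter on low counts, without cytoplasmic library 1 of LM2 and without both nuclear libraries numbered 2 (adjusted p up to 0.087). EIF4A1 lost its gCTRL call without nuclear library 3 (adjusted p = 0.056), and EIF5B its Par call without a filter or cytoplasmic library 1 (adjusted p up to 0.063). EIF3B, EIF3D, EIF3M, EIF5, EIF2S1 and EIF4H each fell in 1 to 3 of the 4 groups.

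The reads of some genes cannot be placed with certainty. EIF5A, which helps ribosomes through difficult stretches, was 524, 569 and 575 CPM in the gCTRL cytoplasm and 183, 220 and 230 CPM in the nucleus, and its log2 difference ran from -1.40 to -1.04. Its near copy EIF5AL1 was 166, 91.3 and 120 CPM in the gCTRL cytoplasm and 36.1, 17.5 and 58.7 CPM in the nucleus, and fell there by 1.75 ± 0.48 and in the gHNRNPC nucleus by 1.65 ± 0.51. In both genes 100% of the reads were fractional estimates, and EIF5AL1 was at 0 in some Par libraries beside others above 100 CPM, so the split between the pair is uncertain. With DESeq2, both EIF5AL1 calls were lost (adjusted p of 0.12 and 0.16). EIF2AK1, the heme-regulated eIF2 kinase, had 92.1 to 93.8% such reads. It was 59.3, 59.996 and 50.2 CPM in the gCTRL cytoplasm and 31.1, 21.3 and 19.1 CPM in the nucleus, with no overlap, and its log2 difference ran from -1.63 to -0.84. EIF2AK2, the eIF2 kinase activated by double-stranded RNA, had 86.0 to 97.0% such reads and was higher in the nucleus of gCTRL, at 294, 286 and 263 CPM against 105, 125 and 91.0 CPM. It rose there by 1.39 ± 0.17 and in gHNRNPC by 1.96 ± 0.18 on the log2 scale. In LM2, its nuclear libraries held 133, 1004 and 254 CPM, and the difference of 2.66 ± 0.91 (adjusted p = 0.029) became 1.40 (adjusted p = 0.17) without the nuclear library 2. That call was also lost without any 1 of the 3 cytoplasmic libraries of LM2, and without both nuclear libraries numbered 2 the difference was 1.41 (adjusted p = 0.00028). In Par, the nuclear libraries held 73.9, 854 and 113 CPM and the difference of 2.11 had an adjusted p of 0.070.

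Site use was tested for genes with 2 entries that each average at least 10 reads, as the change of the less used entry relative to the more used one over the whole table. It covered 9 initiation factor genes for Par and LM2, 10 for the knockdown and 7 for T4. Between nucleus and cytoplasm, 4 of 9 passed in LM2, where 37.8% of all tested genes did, and 0 of 9 in Par, where 10.7% did. By edgeR 2 of the 9 had an unadjusted p under 0.05 in Par, and limma on log2 ratios also called 0. In gCTRL 4 of 10 passed against 29.3% of all genes, and in gHNRNPC 2 of 10 against 14.3%. Both counts include EIF4A2, which entered the test only through its reads in the gHNRNPC nucleus.

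At EIF4G1, the upstream end shown above took 44.7, 43.1 and 35.2% of the reads of both ends in the gCTRL cytoplasm and 24.02, 19.9 and 14.1% in the nucleus. In LM2, its share was 52.3, 50.7 and 43.8% in the cytoplasm and 8.33, 29.4 and 17.5% in the nucleus. The fractions did not overlap in either, and the upstream end fell relative to the downstream end by 1.56 ± 0.35 in gCTRL (adjusted p = 0.0030) and by 2.25 ± 0.51 in LM2 (adjusted p = 0.0051) on the log2 scale. At EIF4EBP2, the position-named site took 62.7, 62.7 and 67.4% in the LM2 cytoplasm and 23.8, 27.8 and 29.8% in the nucleus. In gCTRL it took 42.4, 63.5 and 49.7% in the cytoplasm and 25.4, 28.6 and 30.4% in the nucleus, again without overlap. Its log2 change was -2.26 ± 0.36 in LM2 and -1.44 ± 0.39 in gCTRL, the latter lost without the cytoplasmic library 2 of gCTRL (adjusted p = 0.051). The log2 change in site use of EIF4G1 was -1.33 in Par (adjusted p = 0.087) and -0.75 in gHNRNPC (adjusted p = 0.18), and that of EIF4EBP2 was -1.06 (adjusted p = 0.082) and -0.92 (adjusted p = 0.17).

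EIF1AD, named for its likeness to EIF1A, was read at the ends of ENST00000526451 and ENST00000525767. The latter took 86.7, 95.0 and 73.1% in the LM2 cytoplasm and 18.2, 31.6 and 50% in the nucleus, a log2 change of -3.34 ± 0.82 (adjusted p = 0.0078). EIF2AK2 was read at 2 position-named sites, and the less used one held 10.7, 9.82 and 14.6% in the gCTRL cytoplasm and 4.47, 3.31 and 5.57% in the nucleus. It held 19.7, 31.7 and 21.0% in the gHNRNPC cytoplasm and 3.49, 3.13 and 3.34% in the nucleus. The fractions did not overlap, and the log2 changes were -1.51 ± 0.36 in gCTRL and -3.17 ± 0.37 in gHNRNPC. The LM2 call of EIF2AK2 (-2.41, adjusted p = 0.048) was lost with limma, with entries averaging at least 2 reads, and without the nuclear library 2 or any cytoplasmic library of LM2 (adjusted p up to 0.18). EIF4A2, the other gene called in the knockdown table, is taken up with the knockdown.

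Other translation genes were counted from 2 fixed lists, 30 helpers and regulators of initiation and 20 elongation and termination factors. Of the 28 helpers tested, 3 were higher and 11 lower in the Par nucleus (25.8% and 21.9% of all genes), 6 and 9 in LM2 (31.5% and 23.5%), 7 and 10 in gCTRL (33.9% and 27.6%), and 3 and 10 in gHNRNPC (31.2% and 23.2%). GCN1, which senses stalled ribosomes with the kinase GCN2, was higher in the nucleus by 2.67 in Par, 2.91 in LM2 and 2.39 in gCTRL on the log2 scale. DENR, a factor of re-initiation, was lower in the same groups (-1.91, -2.21 and -1.99). Of the elongation and termination factors, 3 were higher and 5 lower among 12 in Par, 2 and 6 among 12 in LM2, 2 and 11 among 14 in gCTRL, and 2 and 5 among 14 in gHNRNPC, beside the same shares of all genes. EEF1A2, an elongation factor, had the largest difference in each group, between 3.10 ± 0.28 in gCTRL and 4.21 ± 1.20 in Par. The error was wide in Par (adjusted p = 0.015) and in LM2, where the difference was 3.77 ± 1.17 (adjusted p = 0.019).

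**Figure D2:**
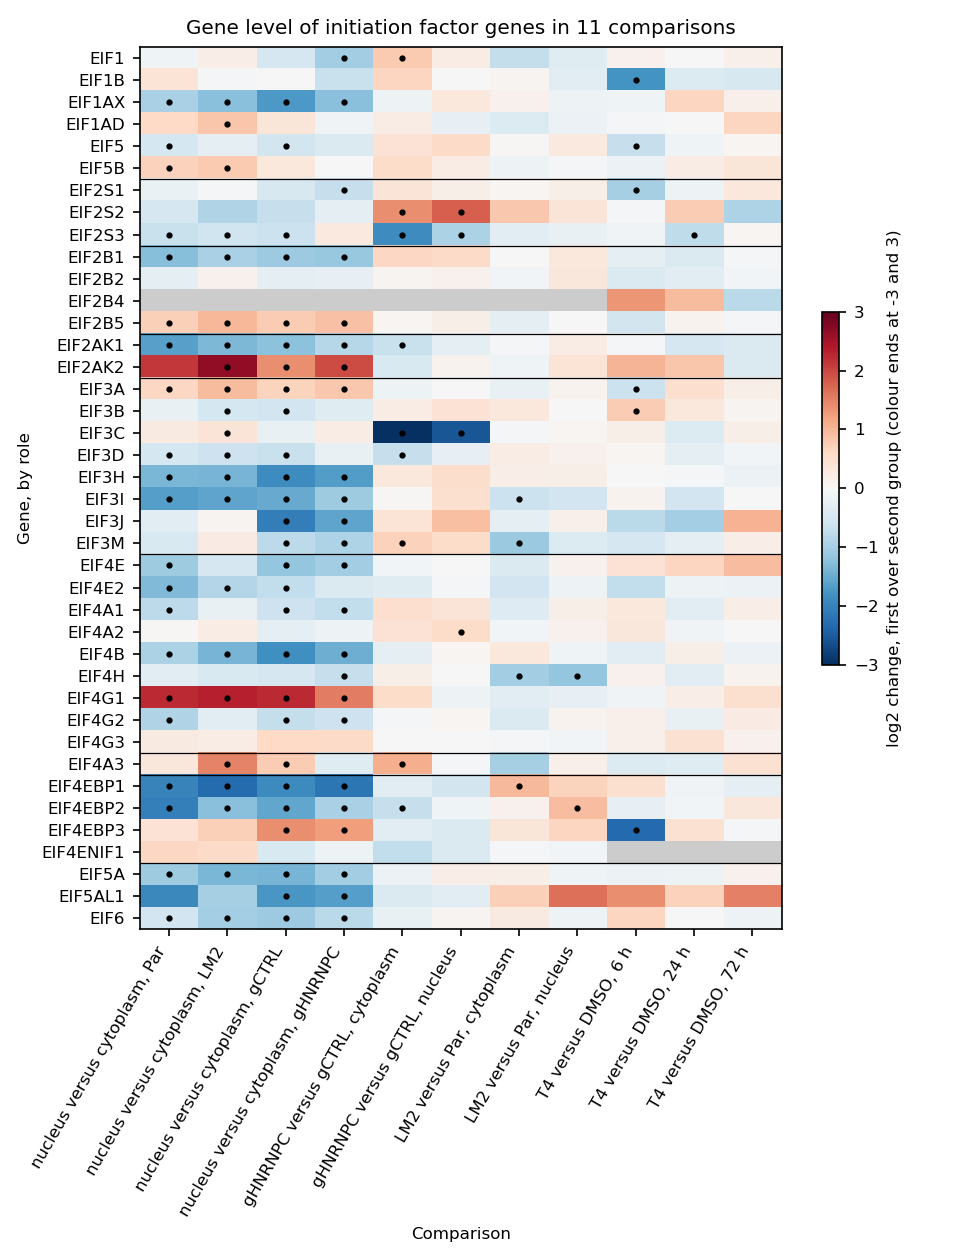
The log2 difference in level of the 40 initiation factor genes that reached the minimum in a table (rows), in the 11 comparisons (columns), as colour, with a dot where the adjusted p was under 0.05 and grey where the gene was under the minimum. The 4 columns of nucleus against cytoplasm hold 21 to 27 dots each, and the 7 other columns 0 to 9.

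In the knockdown of HNRNPC, EIF3C fell further than any other initiation factor gene, in both fractions. It was 197, 297 and 226 CPM in the gCTRL cytoplasm and 29.3, 26.6 and 31.7 CPM in the gHNRNPC cytoplasm. In the nucleus it was 269, 178 and 166 CPM in gCTRL and 38.3, 30.2 and 34.8 CPM in gHNRNPC. The groups were far apart in both fractions. The log2 difference was -3.03 ± 0.23 in the cytoplasm (adjusted p = 4.0e-09) and -2.57 ± 0.23 in the nucleus (adjusted p = 5.6e-08), and the 2 did not differ beyond their error, since the difference between them was 0.46 ± 0.32 (adjusted p = 0.61). By edgeR, 0 of 39 initiation factor genes passed this test of the difference between fractions, where 0.0214% of all genes did, and 4 had an unadjusted p under 0.05. Both calls held under each alternative run.

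EIF3C reads came from a single used end, with 99.8% of them at the transcript end shown above, so no site use could be tested. EIF3CL had few reads of its own: summed over the 3 libraries, EIF3C and EIF3CL had 1389 and 13 reads in the gCTRL cytoplasm, 952 and 6 in the gCTRL nucleus, 180 and 0 in the gHNRNPC cytoplasm, and 129 and 1 in the gHNRNPC nucleus. With 3 reads over the group put in place of 0, EIF3CL was 4.58-fold lower in the gHNRNPC cytoplasm. That value leaves out the counting error of the 13 gCTRL reads and is not a strict lower bound. With the reads of both genes summed, the log2 differences were -3.05 and -2.57. In the other groups EIF3C stayed between 178 and 328 CPM. It was 216, 185 and 231 CPM in the Par cytoplasm and 215, 185 and 213 CPM in the LM2 cytoplasm, a log2 difference of -0.04 (adjusted p = 0.89). Under T4, the log2 difference was 0.18 at 6 h, -0.40 at 24 h and 0.17 at 72 h, with adjusted p of 0.52, 0.18 and 0.81.

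**Figure D3:**
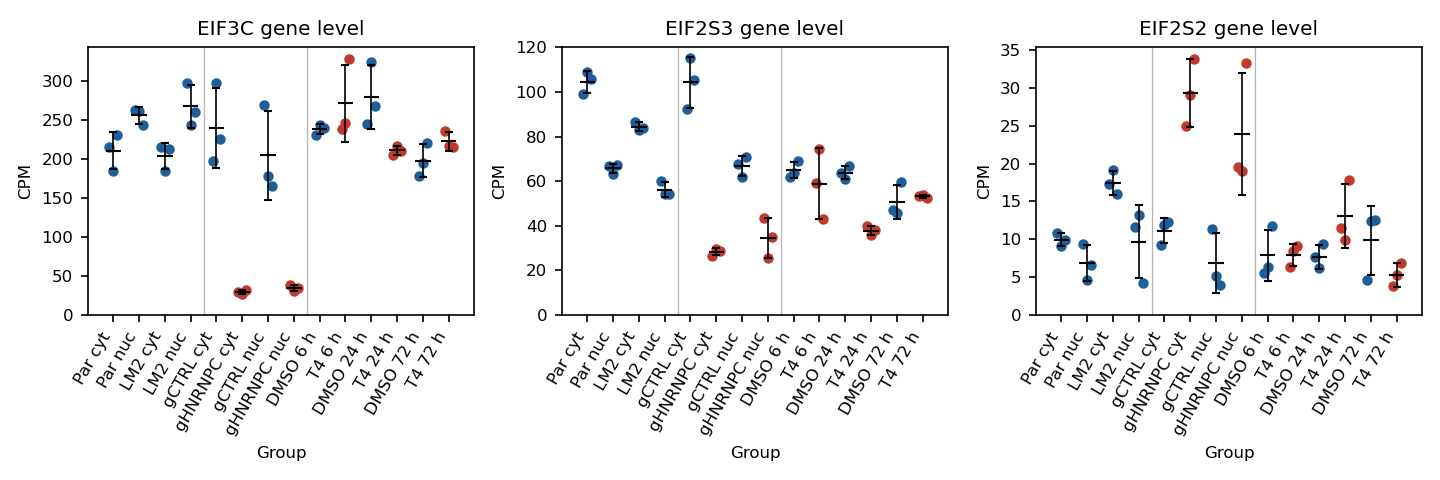
Levels of EIF3C, EIF2S3 and EIF2S2 in CPM in each library of the 14 groups, with a bar at the mean of 3 libraries, an error bar of 1 SD and red points for gHNRNPC or T4. EIF3C lies at 26.6 to 38.3 CPM in the gHNRNPC libraries and at 166 CPM or above in all others.

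Over the knockdown, 4 of 39 initiation factor genes rose and 5 fell in the cytoplasm, where 11.7% of all genes rose and 11.7% fell (23.4% in either direction), and 2 rose and 2 fell in the nucleus, where 8.43% rose and 5.71% fell. The median log2 difference was 0.04 for the initiation factors and 0.01 for all genes in the cytoplasm, and 0.07 and 0.04 in the nucleus. Among the 8 tested eIF3 subunits, 1 rose and 2 fell in the cytoplasm, and only EIF3C passed in the nucleus. EIF3D, an mRNA-binding subunit, fell in the cytoplasm by 0.69 ± 0.18 and EIF3M rose by 0.68 ± 0.23 on the log2 scale. The call of EIF3M ended with the replicate number as a block and without gCTRL cytoplasmic library 2 or gHNRNPC cytoplasmic library 2 or 3 (adjusted p up to 0.20). EIF3F, a subunit under the minimum of 10 reads, passed the expression filter of the test only through the gHNRNPC libraries, where it is high. Its calls, at log2 differences of 2.98 in the cytoplasm and 2.35 in the nucleus, are therefore not independent of that filter. EIF3F had 45 reads in the gHNRNPC cytoplasm against 5 in gCTRL, and 22 against 5 in the nuclei.

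Of the 3 eIF2 subunits, EIF2S3 fell, EIF2S2 rose and EIF2S1 did not pass the test. EIF2S3, the gamma subunit that binds the initiator tRNA and GTP, was 92.5, 115 and 105 CPM in the gCTRL cytoplasm and 26.6, 29.6 and 28.7 CPM in the gHNRNPC cytoplasm. In the nucleus it was 67.8, 62.0 and 70.6 CPM in gCTRL and 43.4, 25.4 and 34.8 CPM in gHNRNPC. The groups did not overlap, and EIF2S3 fell by 1.88 ± 0.21 in the cytoplasm (adjusted p = 8.2e-07) and by 0.95 ± 0.22 in the nucleus (adjusted p = 0.0043). The difference between the fractions, 0.92 ± 0.30, did not pass (adjusted p = 0.30). EIF2S2, the beta subunit, was 9.25, 11.9 and 12.3 CPM in the gCTRL cytoplasm and 24.9, 29.1 and 33.9 CPM in the gHNRNPC cytoplasm. In the nucleus it was 11.4, 5.17 and 3.96 CPM in gCTRL and 19.6, 19.1 and 33.3 CPM in gHNRNPC, again without overlap. It rose by 1.39 ± 0.32 (adjusted p = 0.0026) and 1.80 ± 0.37 (adjusted p = 0.0017). EIF2S1, the alpha subunit that the kinases phosphorylate, did not pass in either fraction, and no gene of eIF2B did among the 3 tested.

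EIF2S3 also changed in site use. Its position-named site took 15.3, 15.02 and 12.2% of reads in the gCTRL cytoplasm and 38.8, 34.5 and 32.8% in the gHNRNPC cytoplasm, an increase of 1.73 ± 0.44 on the log2 scale (adjusted p = 0.014). The groups lay well apart, but the call was lost without gCTRL library 3 or gHNRNPC library 2 (adjusted p up to 0.052). In the same comparison the less used site of EIF2AK2 increased by 1.24 ± 0.35 (adjusted p = 0.024), from the shares given above, and that call was lost without library 1 or 2 of gCTRL or 2 or 3 of gHNRNPC (adjusted p up to 0.16). Together with EIF4A2, 3 of 10 genes passed for site use in the cytoplasm, against 11.6% of all tested genes. In the nucleus 1 of 10 passed, EIF4A2 itself, against 3.68%. EIF4A2 entered these tests only through its reads in the gHNRNPC nucleus, so neither count is independent support.

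On the log2 scale EIF4A2 changed more in the ratio of its 2 ends than in its level, though most of its reads stayed at the transcript end. In gHNRNPC that end had 1667 of 1687 reads in the cytoplasm and 833 of 923 in the nucleus. The level of EIF4A2 was 199, 198 and 218 CPM in the gCTRL cytoplasm and 267, 284 and 276 CPM in the gHNRNPC cytoplasm, a log2 difference of 0.43 that did not pass (adjusted p = 0.055). In the nucleus it was 158, 164 and 179 CPM in gCTRL and 249, 243 and 247 CPM in gHNRNPC, a rise of 0.56 ± 0.16 (adjusted p = 0.022). The libraries did not overlap in either fraction. The nuclear call held under 3 of 11 alternatives. It was lost without a filter on low counts, with the replicate number as a block, with only the 2 groups in the fit and without any of the nuclear libraries except gCTRL number 3 (adjusted p up to 0.13).

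The position-named site of EIF4A2 had 0 of 1192 reads in the gCTRL cytoplasm, which allows a share of up to 0.252%, and 20 of 1687 reads in the gHNRNPC cytoplasm, or 1.19% (exact 95% interval 0.726 to 1.83%). The single libraries of gHNRNPC held 5, 6 and 9 of these reads. In the nucleus the site had 18 of 771 reads in gCTRL, or 2.33% (1.39 to 3.66%), and 90 of 923 in gHNRNPC, or 9.75% (7.91 to 11.8%). By library, the nuclear shares were 3.21, 3.2 and 0.735% in gCTRL and 13.4, 8.17 and 8% in gHNRNPC, so the groups did not overlap. Intervals and limits cover counting error only. The site reached the minimum of 10 reads in these groups only through the gHNRNPC nucleus, so its entry into the tests of site use depended on the change tested. In the nucleus the site rose relative to the transcript end by 2.15 ± 0.45 on the log2 scale (adjusted p = 0.011), a call lost without gHNRNPC nuclear library 1 (adjusted p = 0.068). In the cytoplasm it passed as well (adjusted p = 0.0069). Since gCTRL had no read there, 3 reads over the group were put in place of 0. Relative to the transcript end, the site was then 4.77-fold higher. That value leaves out the counting error of the 20 gHNRNPC reads and is not a strict lower bound. The difference of the changes between the fractions did not pass (adjusted p = 0.71).

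The same site was higher in the nucleus than in the cytoplasm. Relative to the transcript end it was 9.50-fold higher in the gCTRL nucleus (adjusted p = 0.00066), again with 3 reads in place of 0 in the cytoplasm and not as a strict lower bound. It rose by 3.14 ± 0.44 on the log2 scale in gHNRNPC (adjusted p = 6.0e-05). The site entered these tests only through its reads in the gHNRNPC nucleus. The gHNRNPC call is therefore not independent of that entry. In the Par and LM2 table the site averaged under 10 reads and was not tested at that minimum. There it had 2 of 802 reads, or 0.249%, in the LM2 cytoplasm and 30 of 616, or 4.87%, in the LM2 nucleus. It had 9 of 1066 (0.844%) and 9 of 623 (1.44%) in the Par fractions. With the minimum lowered to 2 reads, the nuclear difference was 4.06 in LM2 (adjusted p = 0.0031) and 0.77 in Par (adjusted p = 0.62).

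**Figure D4:**
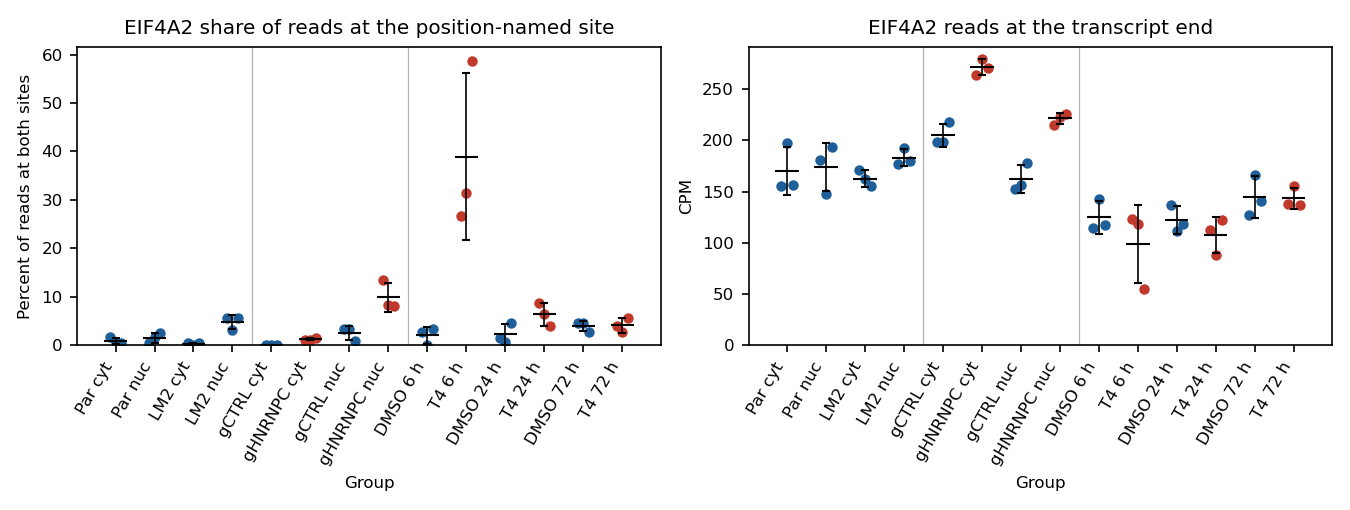
The share of EIF4A2 reads at the position-named site in percent (left) and the level at the EIF4A2 transcript end in CPM (right) in each library, with bars at group means, error bars of 1 SD and red points for gHNRNPC or T4. The 6 h T4 libraries, at 26.6 to 58.6%, lie above all other libraries in the left panel.

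Among the other roles, EIF4A3 rose in the gHNRNPC cytoplasm, at 119, 254 and 176 CPM against 90.3, 56.2 and 111 CPM, a log2 difference of 1.09 ± 0.26 (adjusted p = 0.0037) that was lost without gHNRNPC library 2 (adjusted p = 0.053). EIF1 rose by 0.77 ± 0.22, at 159, 244 and 173 CPM against 129, 72.4 and 135 CPM, and lost the call without cytoplasmic library 2 of either group (adjusted p up to 0.12). The groups did not overlap in either gene. EIF4EBP2 fell in the cytoplasm by 0.70 ± 0.22, at 62.9, 84.3 and 80.2 CPM against 131, 98.9 and 139 CPM, and EIF2AK1 fell by 0.67 ± 0.23, at 41.2, 27.1 and 38.1 CPM against 59.3, 59.996 and 50.2 CPM. EIF4EBP2 lost its call without library 1 or 3 of either cytoplasmic group (adjusted p up to 0.10), and EIF2AK1 without a filter on low counts, gCTRL library 1 or 2 or gHNRNPC library 2 or 3 (adjusted p up to 0.13). The 9 genes grouped here with eIF4F also take in cofactors and relatives of its parts: EIF4E, EIF4E2, EIF4A1, EIF4A2, EIF4B, EIF4H, EIF4G1, EIF4G2 and EIF4G3. None of the 9 passed in the cytoplasm by edgeR, and EIF4A2 was the only 1 of them to pass in the nucleus.

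Of the 28 tested helpers of initiation, 6 rose and 4 fell in the cytoplasm under the knockdown (11.7% and 11.7% of all genes). In the nucleus 3 rose and 0 fell by edgeR (8.43% and 5.71% of all genes), and 5 had an unadjusted p under 0.05. MKNK2, a kinase of eIF4E, rose by 2.06 in the cytoplasm and 1.95 in the nucleus on the log2 scale (adjusted p of 1.4e-07 and 3.3e-06). PAIP2, which displaces the poly(A)-binding protein, rose by 1.71 ± 0.45 in the cytoplasm, though its libraries overlapped. GCN1 rose there by 1.51 ± 0.47, from low means of 8.95 CPM in gHNRNPC and 2.96 CPM in gCTRL. In the nucleus ATF4, the transcription factor of the integrated stress response, rose by 1.30 and PPP1R15A, which directs the removal of the phosphate from eIF2 alpha, by 1.21. Of the 14 elongation and termination factors, 1 rose and 1 fell in the cytoplasm, and 3 rose and 1 fell in the nucleus, beside the same shares. The termination factor GSPT1 fell by 1.92 and 0.72, and its partner ETF1 rose by 0.78 and 0.91.

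With T4 at 6 h, 1 of 39 initiation factor genes was higher than with DMSO and 5 were lower, where 3.41% of all genes were higher and 12.6% lower (16.0% in either direction). At 24 h, 0 were higher by edgeR and 1 lower, with an unadjusted p under 0.05 for 7, against 2.20% and 3.04% (5.24% in either direction). At 72 h, 0 passed by edgeR, with a smallest adjusted p of 0.26, against 0.0995% of all genes higher and 0.162% lower; 3 had an unadjusted p under 0.05 and DESeq2 also called 0. The median log2 difference of the initiation factors was -0.06 at 6 h, -0.11 at 24 h and 0.09 at 72 h, beside -0.11, 0.02 and -0.01 for all genes. The number of calls depends on the fit: with only the 2 groups compared it was 1 at 6 h and 5 at 24 h, and DESeq2 gave 5 at 24 h. The third 6 h T4 library stands apart, and values without it are given beside the changes at 6 h in level and site use.

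EIF4EBP3 was 1.82, 4.66 and 4.53 CPM at 6 h with T4 and 15.1, 17.5 and 20.1 CPM with DMSO, from 9 against 72 reads in all. It fell by 2.32 ± 0.41 on the log2 scale (adjusted p = 0.00093), and by 2.35 without the third T4 library. EIF1B, a close relative of EIF1, was 5.45, 5.60 and 0 CPM with T4 and 11.9, 16.0 and 18.8 CPM with DMSO, from 12 against 64 reads. It fell by 1.78 ± 0.42 (adjusted p = 0.0074), or by 1.42 (adjusted p = 0.017) without that library. Neither gene's groups overlapped.

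EIF2S1 was 30.9, 43.8 and 15.9 CPM with T4 and 49.1, 73.4 and 70.2 CPM with DMSO at 6 h, a fall of 1.00 ± 0.25 (adjusted p = 0.010). Without the third T4 library, its lowest value, it fell by 0.71 (adjusted p = 0.036). EIF3A was 79.9, 85.8 and 109 CPM with T4 and 144, 132 and 150 CPM with DMSO, a fall of 0.65 ± 0.19 (adjusted p = 0.024), or 0.70 (adjusted p = 0.0082) without the third library. EIF5, which triggers GTP hydrolysis by eIF2, was 35.4, 34.5 and 34.0 CPM with T4 and 64.2, 47.1 and 55.9 CPM with DMSO, a fall of 0.68 ± 0.20 (adjusted p = 0.027) that was 0.59 and lost its call without the third library (adjusted p = 0.083). EIF3B, which binds the small subunit within eIF3, was the gene that rose, at 358, 352 and 623 CPM against 266, 236 and 279 CPM, by 0.76 ± 0.23 (adjusted p = 0.032). Without the third library, its highest value, the rise was 0.52 and the call was lost (adjusted p = 0.065). The T4 and DMSO libraries did not overlap in any of these 4 genes. When the fit held only the 2 groups compared, EIF4EBP3 kept its call and EIF1B, EIF2S1, EIF3A, EIF5 and EIF3B lost theirs (adjusted p from 0.076 for EIF1B to 0.18 for EIF3B). The calls of EIF3A, EIF3B and EIF5 held under 4, 5 and 2 of the 11 alternatives.

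At 24 h EIF4EBP3 was 18.6, 15.2 and 30.8 CPM with T4 and 13.97, 17.3 and 15.6 CPM with DMSO. At 72 h it was 15.04, 16.2 and 11.6 CPM with T4 and 12.3, 15.3 and 16.5 CPM with DMSO. T4 and DMSO libraries overlapped at both harvests. EIF3A was 183, 215 and 211 CPM with T4 at 24 h against 147, 155 and 126 CPM with DMSO, so its T4 libraries lay above the DMSO libraries there and below them at 6 h. The gene called at 24 h was EIF2S3, at 39.8, 35.6 and 38.1 CPM with T4 and 63.5, 61.0 and 66.7 CPM with DMSO. It fell by 0.75 ± 0.19 (adjusted p = 0.028), without overlap, but the call ended without a filter on low counts and when any 1 of the 6 libraries was left out (adjusted p up to 0.12). The change between harvests was tested too: 2 of 39 initiation factor genes had a higher T4 difference at 24 h than at 6 h, where 9.09% of all genes passed in either direction, 3 of 39 a higher one at 72 h than at 6 h, against 9.38%, and 0 differed between 72 and 24 h by edgeR, against 0.0871%, with an unadjusted p under 0.05 for 5.

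**Figure D5:**
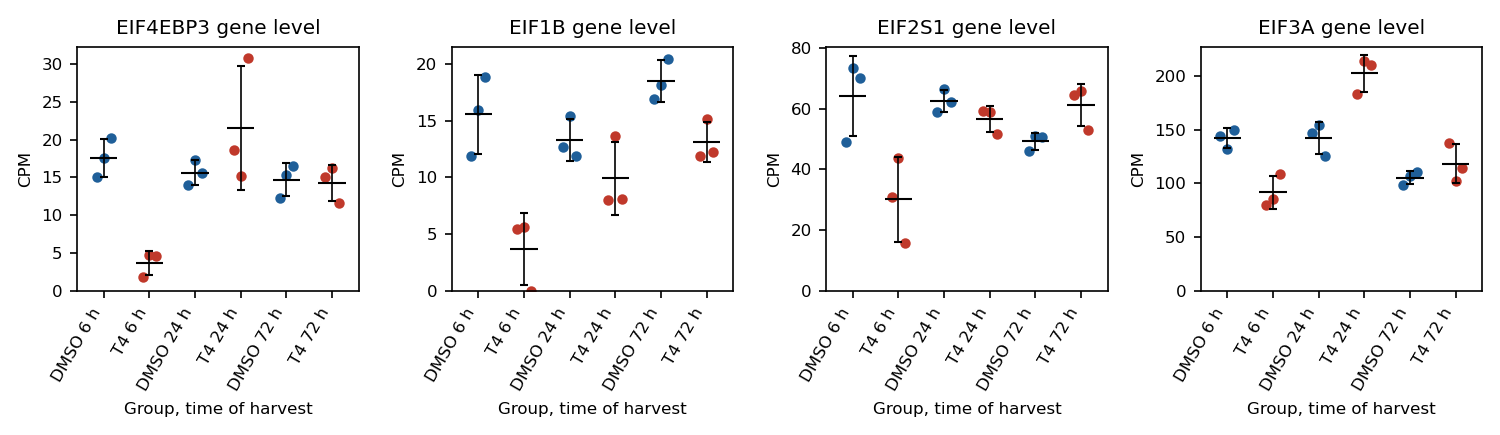
Levels of EIF4EBP3, EIF1B, EIF2S1 and EIF3A in CPM in each library with DMSO or T4 at 6, 24 and 72 h, with bars at the means of 3 libraries, error bars of 1 SD and red points for T4. At 6 h all T4 libraries lie below all DMSO libraries in the 4 genes.

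The largest response to T4 among the initiation factors was in the ends of EIF4A2. At 6 h, its position-named site had 141 of 427 reads with T4, or 33.0% (28.6 to 37.7%), and 10 of 513 with DMSO, or 1.95% (0.939 to 3.56%). By library the shares were 26.6, 31.4 and 58.6% with T4 and 2.70, 0 and 3.23% with DMSO, so the groups lay far apart and the third T4 library was the highest. The site rose relative to the transcript end by 4.81 ± 0.68 on the log2 scale (adjusted p = 8.8e-05), by 4.99 with limma, and by 4.32 (adjusted p = 2.7e-05) without the third T4 library. EIF4A2 was 1 of 7 initiation factor genes tested for site use and the only 1 to pass, where 5.45% of all genes passed. Its site reached the minimum of 10 reads only through the 6 h T4 libraries. Its entry into the test therefore depended on the change tested, and the count is no independent support. Without the third library the site had 107 of 369 reads with T4, or 28.997% (24.4 to 33.9%). The reads of the transcript end averaged 98.5 ± 38.3 CPM with T4, or 120.5 without the third library, and 125 ± 15.8 CPM with DMSO, while the level of the gene was 170, 176 and 131 CPM with T4 and 117, 143 and 121 CPM with DMSO.

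At 24 h the EIF4A2 site held 26 of 420 reads with T4, or 6.19%, and 13 of 598 with DMSO, or 2.17%. By library these were 8.63, 6.45 and 3.82% with T4 and 1.37, 0.552 and 4.55% with DMSO, which overlap, and the log2 change of 1.58 ± 0.75 did not pass (adjusted p = 0.26). At 72 h it held 3.89% with T4 and 4% with DMSO, a change of -0.01 ± 0.64. No initiation factor gene passed for site use at 24 or 72 h by edgeR or limma, where 2.48% and 0% of all genes passed by edgeR; 2 and 0 of the 7 had an unadjusted p under 0.05.

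Of the 27 tested helpers of initiation, 2 were higher and 4 lower with T4 at 6 h, or 1 and 3 without the third T4 library, beside 3.41% and 12.6% of all genes. RPS6KB1, a kinase downstream of mTOR, fell by 2.04 and PPP1R15A by 1.74 on the log2 scale, while DDX3X, a helicase that assists scanning, rose by 1.80. Without the third library these were -2.08, -1.37 and 1.88. At 24 h 1 was lower, MTOR itself, which fell by 1.43 (adjusted p = 0.044), beside 3.04% of all genes. At 72 h none passed by edgeR and 3 had an unadjusted p under 0.05. Of the 12 elongation and termination factors, 1 was lower at 6 h, EEF2KMT, which methylates an elongation factor, by 1.36, or by 1.33 without the third library.

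Between LM2 and Par, the count in the cytoplasm was near the share of all genes. There 1 of 39 initiation factor genes was higher in LM2 and 3 lower. Of all genes, 3.94% were higher and 6.93% lower (10.9% in either direction). In the nucleus 1 was higher and 1 lower, where 1.15% and 1.05% were (2.2% in either). On simulated counts for the cytoplasm, the test found 6.12% of changes of 1 on the log2 scale. Genes that did not pass may therefore still differ. The median log2 difference was -0.06 in the cytoplasm and 0.11 in the nucleus, beside -0.02 and 0.01 for all genes. Leaving out both nuclear libraries numbered 2 gave 1 higher and 7 lower in the cytoplasm and 0 higher and 1 lower in the nucleus.

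EIF4H, which stimulates the eIF4A helicase, was the gene lower in LM2 in both fractions. It was 68.5, 80.4 and 69.7 CPM in the LM2 cytoplasm and 149, 170 and 133 CPM in the Par cytoplasm. In the nucleus it was 56.9, 43.3 and 57.9 CPM in LM2 and 148, 87.6 and 121 CPM in Par. The lines did not overlap in either fraction, and EIF4H was lower by a log2 difference of -1.05 ± 0.21 in the cytoplasm (adjusted p = 0.012) and -1.17 ± 0.21 in the nucleus (adjusted p = 0.016). EIF3M was 53.8, 50.7 and 44.0 CPM in the LM2 cytoplasm and 104, 130 and 89.1 CPM in Par, a difference of -1.12 ± 0.25 (adjusted p = 0.019). EIF3I, at 151, 145 and 142 CPM in LM2 and 219, 233 and 237 CPM in Par, differed by -0.65 ± 0.18 (adjusted p = 0.041).

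Both genes higher in LM2 encode 4E-BPs. EIF4EBP1 was 134, 153 and 124 CPM in the LM2 cytoplasm and 53.0, 55.6 and 102 CPM in Par, a difference of 0.97 ± 0.27 (adjusted p = 0.044). EIF4EBP2 was 44.3, 43.3 and 39.7 CPM in the LM2 nucleus and 23.0, 23.0 and 20.7 CPM in Par, a difference of 0.93 ± 0.20 (adjusted p = 0.039). Here the lines did not overlap either. These calls between the lines were often lost with 1 library fewer: in the cytoplasm EIF4EBP1, EIF3M and EIF3I were lost without any LM2 library and without Par library 1 or 2, EIF3I also without Par library 3 (adjusted p up to 0.18), and EIF4H without LM2 library 1 or 3 or Par library 1 or 2 (up to 0.066). Without a filter on low counts EIF4EBP1 and EIF3I were lost too, and EIF3I also with median-of-ratios scaling and the replicate block. In the nucleus EIF4EBP2 was lost without any 1 library (adjusted p up to 0.15) and with the replicate number as a block (0.93, adjusted p = 0.062), where the count of initiation factor genes that passed went from 2 to 1, and EIF4H without LM2 library 2 or 3 or Par library 1 or 3 (up to 0.065). EIF4EBP2 kept its nuclear call under 1 of 12 alternatives (adjusted p up to 0.18), and with only the 2 groups in the fit that of EIF4H was lost (adjusted p = 0.20).

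For site use between the lines, 0 of 9 initiation factor genes passed in either fraction by edgeR or limma, where 0.187% of all genes passed in the cytoplasm and 0% in the nucleus by edgeR. Of the 9, 2 and 0 had an unadjusted p under 0.05. In the cytoplasm EIF1AD had a log2 change of 3.46 (adjusted p = 0.053), from 61 reads in LM2 and 102 in Par. Its less used end took 73.1 to 95.0% in LM2 and 27.8 to 38.7% in Par. It passed with only the 2 groups in the fit (adjusted p = 0.0050), without both nuclear libraries numbered 2 (0.0092) and without Par library 3 (0.037), and under no other alternative. Whether the fractions differed in the change between lines was tested as well, and 0 of 39 passed for level by edgeR, where 0% of all genes did and 5 of the 39 had an unadjusted p under 0.05. Of the 28 helpers of initiation, 1 was higher and 1 lower in the LM2 cytoplasm: ATF4 by 1.06, and PAIP2 by -1.79 on the log2 scale, beside 3.94% and 6.93% of all genes. In the nucleus none of these passed by edgeR, and 3 had an unadjusted p under 0.05. Over the 7 comparisons other than the fractions, 19 of the 38 genes at the minimum in all 3 tables passed in at least 1, as did 49.0% of all genes tested in all 3. Of the initiation factor genes, EIF2B2 and EIF4G3 passed in none of the 11 comparisons. EIF2B4 was at the minimum only for the T4 libraries, and EIF4ENIF1 was under it there. Both passed in none of the comparisons where they were at the minimum.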

How the data were processed

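RNA 3′ ends were sequenced with QuantSeq REV, per the labels' protocols. The authors deposited 3 tables of expected counts for 94924 entries each, made with Salmon 0.14.1 and hg38, per the submitters' processing notes. Between 98.3 and 98.6% of the values were whole and the rest were rounded. Of 71604 transcript ends, 66115 matched GENCODE 29, and a position-named entry was assigned to the gene of the transcript end listed above it. Entries without a gene held 0.919 to 4.13% of reads and were left out. Library totals were 798052 to 2304698 reads, and 0 columns were left unused.

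Levels were summed per gene and tested with edgeR 4.0.16 in R 4.3.3 (TMM scaling, filterByExpr, quasi-likelihood fit, all groups of a table in 1 fit), with Benjamini-Hochberg adjustment over 8546 genes for Par and LM2, 9356 for the knockdown and 8039 for T4. CPM used the TMM-scaled library size, and the SE was derived from the log2 difference and the F statistic. Site use was the interaction of site and group over the 2 most used entries, each averaging at least 10 reads, with a library block, over 1071, 1169 and 807 genes. Alternatives were DESeq2 1.42.0, limma 3.58.1, median-of-ratios scaling, no filter, a minimum of 2 reads, only the groups compared, a replicate block and each library left out. On simulated counts over the 8938 genes of the knockdown in the cytoplasm, the level test found 54.7% of genes changed by 1 and 93.9% of those changed by 2 on the log2 scale. For LM2 against Par in the cytoplasm it found 6.12% of 98 and 71.0% of 93 planted changes, among 8207 genes. For T4 at 6 h it found 22.7% of 97 and 82.5% of 97, among 7719 genes. For site use, changes of 1 were found in 0% (LM2 against Par), 10% (knockdown) and 4% (T4), and changes of 2 in 50%, 42% and 54%. The simulated counts for site use had a fixed spread that was not taken from the data. A site use change that did not pass is therefore weak evidence of no change.

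Same-numbered libraries deviated together in 2 comparisons only, LM2 against Par in the nucleus (correlations of deviations 0.161 to 0.764) and T4 against DMSO at 72 h (0.142 to 0.641). The pairing there comes from the data, since the labels give only the number. The genes and lists were chosen with earlier results of these data known. Values per library are given for genes at the minimum that were called with a log2 difference of at least 1 in any of 11 comparisons or called for site use, and for EIF4A2, EIF3C and EIF3CL. From the 2 lists of other translation genes, at most the 3 called genes with the largest change per comparison are named. EIF3A, EIF3B, EIF3D, EIF4A1, EIF4G2, EIF5, EIF5B and EIF3F were added after their values were seen.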

Additional observations from a re-analysis of the deposited data

Results flagged for a closer look

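The change with T4 against DMSO differed between harvest times by a test of the difference itself for 4 genes in level and for 1 gene in site use, which is how these results came to be listed. The share of all genes that passed the same test was 9.09% for 24 h against 6 h and 9.38% for 72 h against 6 h in level, and 2.60% for 72 h against 6 h in site use.

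For EIF3A the change at 24 h exceeded that at 6 h by 1.16 ± 0.26 (SE) on the log2 scale (adjusted p = 0.0089), and by 1.11 (adjusted p = 0.0028) without the third 6 h T4 library. For EIF4EBP3 the difference was 2.78 ± 0.50 at 24 h (adjusted p = 0.0020) and 2.28 ± 0.51 at 72 h (adjusted p = 0.0096) against 6 h, or 2.70 and 2.32 without that library. For EIF2S1 the change at 72 h exceeded that at 6 h by 1.31 ± 0.34 (adjusted p = 0.021), or 1.03 (adjusted p = 0.027) without it. EIF3J was 8.18, 16.8 and 4.53 CPM with T4 and 19.8, 15.2 and 21.4 CPM with DMSO at 6 h, and 15.7, 15.7 and 17.7 CPM with T4 and 7.68, 6.80 and 9.25 CPM with DMSO at 72 h. Its libraries overlapped at 6 h and not at 72 h, and the difference of the changes was 1.84 ± 0.46 (adjusted p = 0.019), or 1.58 (adjusted p = 0.030) without the third library. For the position-named site of EIF4A2 the change at 72 h was below that at 6 h by a log2 difference of -4.82 ± 0.98 (adjusted p = 0.0050), or -4.33 (adjusted p = 0.0030) without it. The causes were not tested.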

How the results depend on the processing

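Of 135 values of genes at the minimum that passed the test, 90 did so under every alternative run, 45 were lost under at least 1, and 0 reversed. The cause of the changes in number below was not tested. For level, the genes that passed in LM2 against Par went from 4 in the cytoplasm to 2 without a filter, 11 with only the 2 groups compared and 8 without both nuclear libraries numbered 2. In the nucleus they went from 2 to 1 with DESeq2, without a filter, with the replicate block and without both libraries numbered 2, and to 0 with only the 2 groups. With only the 2 groups, the knockdown in the cytoplasm went from 9 to 15, T4 at 6 h from 6 to 1 and T4 at 24 h from 1 to 5. T4 at 24 h gave 5 with DESeq2 and 0 without a filter, and T4 at 72 h went from 0 to 1 without a filter. For site use, LM2 against Par in the cytoplasm went from 0 to 3 with only the 2 groups and to 3 without both nuclear libraries numbered 2. T4 at 24 h went from 0 to 1 with only the 2 groups, the fractions of Par from 0 to 1 without both libraries, and the fractions of LM2 from 4 to 7 with entries averaging at least 2 reads.

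Leaving out 1 library at a time gave for level 5 to 9 genes (knockdown, cytoplasm), 3 to 4 (knockdown, nucleus), 0 to 4 (LM2 against Par, cytoplasm), 0 to 1 (LM2 against Par, nucleus), 22 to 29 (fractions of gCTRL), 22 to 25 (gHNRNPC), 18 to 22 (LM2), 18 to 23 (Par), 3 to 5 (T4, 6 h) and 0 to 0 (T4, 24 and 72 h). For site use it gave 1 to 3 (knockdown, cytoplasm), 0 to 1 (knockdown, nucleus; LM2 against Par, cytoplasm; fractions of Par), 3 to 4 (gCTRL; LM2), 2 to 3 (gHNRNPC), 1 to 1 (T4, 6 h) and 0 to 0 in the other 3 comparisons. With the replicate number as a block, level counts went from 4 to 3 in LM2 against Par in the cytoplasm, 9 to 8 and 4 to 3 in the knockdown, and 22 to 21 in the fractions of LM2. Those of the fractions of Par (21), gCTRL (27) and gHNRNPC (24), of T4 (6, 1 and 0) and of site use did not change. The numbers are shared without pairing in all but the 2 comparisons named above. Depth limits the lowest genes: at 6 h EIF4EBP3 and EIF1B rest on 9 and 12 reads with T4.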
